A study of Homo sapiens with 44 samples.

Results

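IDO1, TDO2, KYNU, KMO, AFMID and WARS1 are 6 of the 40663 gene symbols in a table of bulk RNA-seq counts from Ccd-18Co, a fibroblast line from human colon. The 6 symbols were taken by name. They were chosen by their known roles in tryptophan metabolism together with their measured counts in these same libraries, so their levels and fold changes are given below as a description, with no p-value. All 6 passed the filter on low counts that left 9513 genes for testing. In the genome build GRCh38, with GENCODE gene models, IDO1 lies on chromosome 8 (39902275 to 39928790, plus strand) and TDO2 on chromosome 4 (155854738 to 155920406, plus strand). KYNU lies on chromosome 2 (142877657 to 143055833, plus strand), KMO on chromosome 1 (241532134 to 241595642, plus strand), AFMID on chromosome 17 (78187358 to 78207702, plus strand) and WARS1 on chromosome 14 (100333790 to 100376805, minus strand).

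The 44 libraries fall into 11 groups of 4: cells left unstimulated, and cells given 1 of 10 recombinant cytokines (IFNα, IFNγ, TNF, IL-1β, IL-6, IL-13, IL-17A, IL-22, TGF-β1 or oncostatin M, OSM). Per the labels each cytokine was used at 10 ng/ml, except IL-1β at 0.1 ng/ml, for which a figure legend of the study gives a lower dose. In the study's methods the cells stood in serum-free medium for 72 h before 24 h of stimulation. Every group therefore comes from 1 cell line kept without serum, and nothing in the labels says whether the replicates were separate cultures, so the spread between them may be technical. Total counts were between 742173 and 2213424 per library, which makes 3 counts worth 1.39 to 3.85 CPM (counts scaled by normalized library size). All 8 fibroblast markers had counts in every group, whereas of 6 epithelial markers EPCAM, CDH1, KRT20 and CDX2 had 0 to 4 counts each over the 44 libraries, KRT19 21, and VIL1 698 (up to 26.6 CPM in a library). The library IFNγ replicate 2 correlated least with its own group (mean r = 0.874), and its values are named where they bear on a result.

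Most tryptophan that is not built into protein is broken down through the kynurenine pathway. IDO1 and TDO2 are alternative enzymes for the first, rate-limiting step, the opening of the indole ring to N-formylkynurenine, and AFMID removes the formyl group to give kynurenine. KMO hydroxylates kynurenine, and KYNU cleaves kynurenine and 3-hydroxykynurenine on the way to anthranilic acids and NAD. Kynurenine is also a ligand of the aryl hydrocarbon receptor, and WARS1 consumes the same amino acid by charging the tRNA for tryptophan. IDO1 and WARS1 are textbook interferon-γ response genes, and in mucosa and other tissues the depletion of tryptophan by IDO1 restrains microbes and T cells.

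RefSeq promoter sequences on GRCh38.p14 were found for 5 of the 6 symbols and not for IDO1. The 250 bases before the transcription start were searched for 3 elements that some, not all, of the cytokines used here are known to act through. The first was the interferon-stimulated response element core (ISRE, GAAANNGAAA, both strands). The others were the STAT-binding core known as GAS (TTCNNNGAA, which reads the same on both strands) and the NF-κB consensus (both strands). Of all 35116 promoter windows of the same length, 3.02% held the ISRE core, 6.57% the GAS core and 9.96% the NF-κB consensus. WARS1 has 2 annotated starts, and the window of its downstream start (chr14:100375348-100375597, minus strand) held the ISRE core at -55 to -46 from the start and the GAS core at -142 to -134. KYNU (chr2:142877414-142877663, plus strand) held the GAS core at -34 to -26. None of the 3 elements was found in the window of TDO2 (chr4:155903446-155903695, plus strand), KMO, AFMID or the upstream start of WARS1, which says only that these letters are not in those windows. The sequences of the 3 genes whose levels moved and that have an entry are shown 5′ to 3′ with the matches in capitals, to be read beside the responses described further on.
WARS1: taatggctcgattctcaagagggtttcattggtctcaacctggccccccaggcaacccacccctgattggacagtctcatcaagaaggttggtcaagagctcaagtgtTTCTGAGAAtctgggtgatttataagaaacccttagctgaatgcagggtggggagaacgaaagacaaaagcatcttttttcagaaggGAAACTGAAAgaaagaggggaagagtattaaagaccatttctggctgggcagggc
KYNU: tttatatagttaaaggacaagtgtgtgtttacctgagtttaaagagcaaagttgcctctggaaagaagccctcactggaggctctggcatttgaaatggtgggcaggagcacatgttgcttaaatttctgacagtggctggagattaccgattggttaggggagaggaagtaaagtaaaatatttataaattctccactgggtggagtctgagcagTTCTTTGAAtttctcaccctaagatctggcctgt
TDO2: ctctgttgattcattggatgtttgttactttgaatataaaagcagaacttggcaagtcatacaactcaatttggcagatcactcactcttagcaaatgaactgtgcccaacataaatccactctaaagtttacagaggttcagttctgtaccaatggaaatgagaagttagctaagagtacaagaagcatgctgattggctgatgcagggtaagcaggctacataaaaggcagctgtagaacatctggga

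Unstimulated Ccd-18Co cells held little message of either enzyme for the first step and plenty of the tryptophanyl-tRNA synthetase. Per kilobase of the canonical transcript, which allows genes to be set against each other, unstimulated WARS1 was at 133 ± 43.7 CPM (SD, n = 4), IDO1 at 1.12 ± 1.33 and TDO2 at 0.286 ± 0.404. With IFNγ, IDO1 reached 1106 ± 291 CPM per kilobase and WARS1 2559 ± 620.1. With OSM, TDO2 reached 45.0 ± 7.90 CPM per kilobase. The plot of log2(CPM + 1) in every library shows these levels for all 6 genes.

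**Figure D1:**
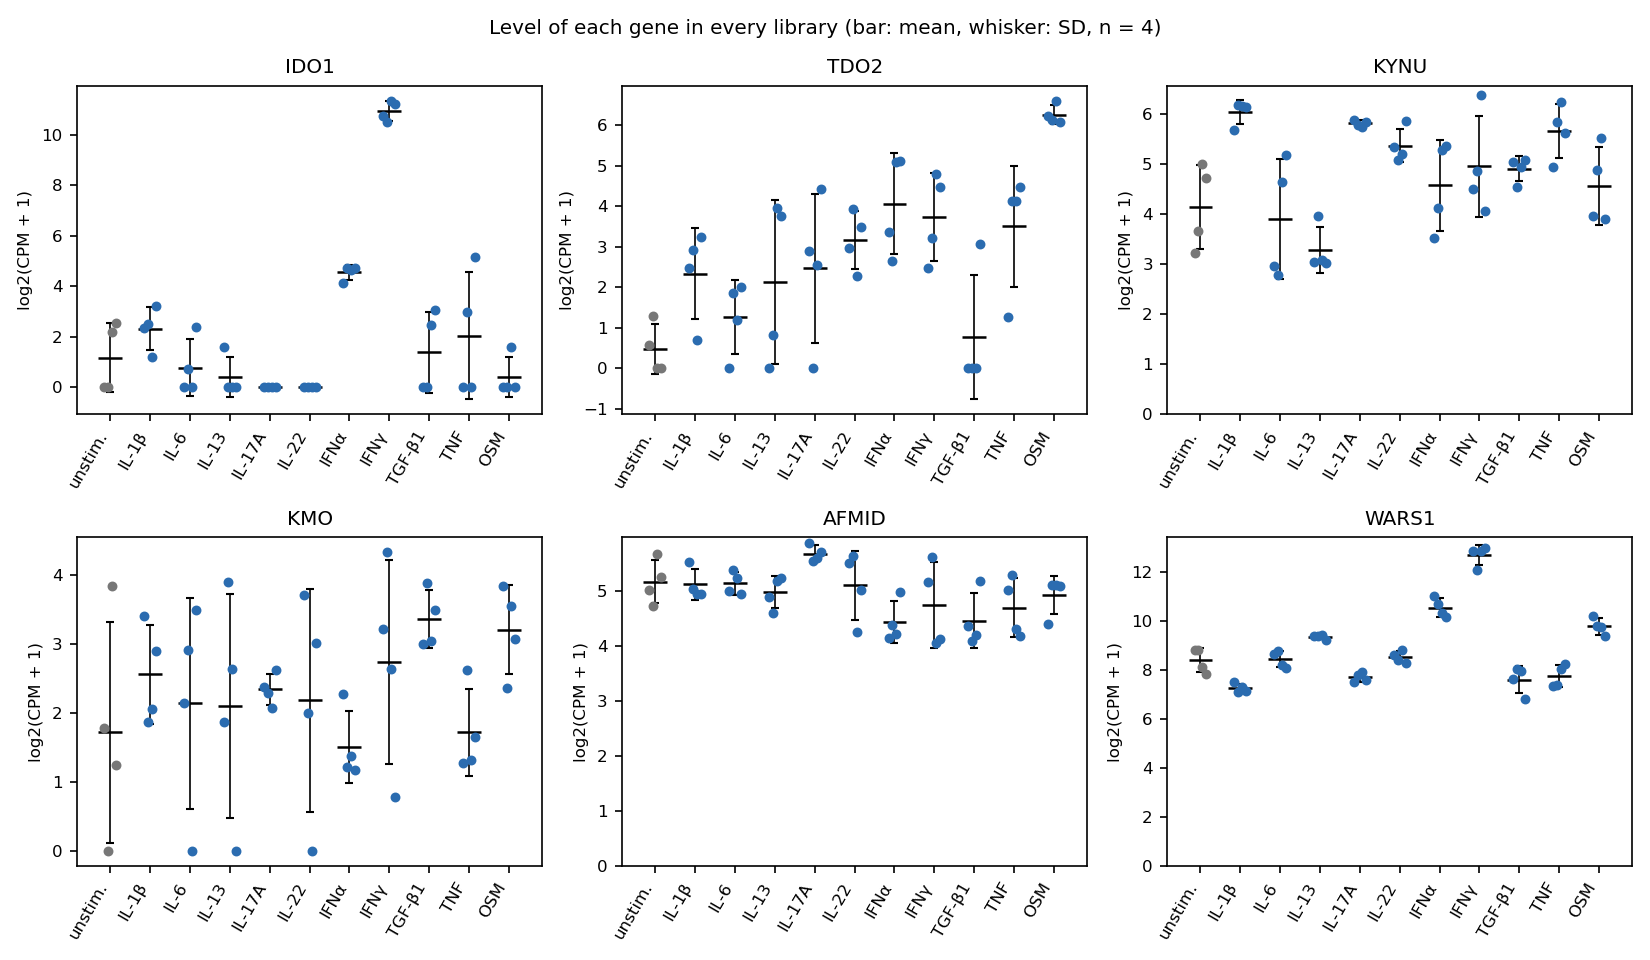
Level of each of the 6 genes in each of the 44 libraries, as log2(CPM + 1) on the vertical axis, with 1 panel per gene and the 11 groups along the horizontal axis (grey, unstimulated; blue, cytokine). Bars are means and whiskers are SD (n = 4); the 4 IFNγ libraries stand above all others for IDO1 and WARS1, the 4 OSM libraries stand above all others for TDO2, and every cytokine group of KMO and AFMID overlaps the unstimulated range.

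A gene is counted as called in a comparison with unstimulated cells when its adjusted p is under 0.05 and its log2 fold change is beyond 1.5 in either direction, the thresholds of the study's methods, in a fit of all 44 libraries (edgeR's quasi-likelihood test). Over the 10 comparisons, 9 of the 60 tests of the 6 genes were called, all 9 upward. At an adjusted p under 0.05 alone, 12 were higher and 2 lower. With IFNγ, 3 of the 6 were called (IDO1, TDO2 and WARS1), against 3.53% of all tested genes, and with IFNα the same 3, against 3.98%. With IL-1β 1 was called (KYNU; background 2.78%), with TNF 1 (TDO2; background 4.19%) and with OSM 1 (TDO2; background 1.3%). None was called with IL-6 (background 0.0105%), IL-13 (1.47%), IL-17A (0.452%), IL-22 (0.0%) or TGF-β1 (1.7%). The IL-22 comparison had 0 called genes of 9513 by edgeR, with 1037 genes at an unadjusted p under 0.05.

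With the adjusted p alone, the background was 10.6% for IFNγ and 9.85% for IFNα, and the count of the 6 genes stayed at 3 in each. It was 7.38% for IL-1β, where WARS1 was added as lower, and 11.5% for TNF, where KYNU was added as higher. OSM (3.96%) and IL-13 (3.93%) each added WARS1 as higher, and TGF-β1 (5.69%) added WARS1 as lower. IL-6 (0.0105%), IL-17A (1.52%) and IL-22 (0.0%) added none. Since the genes were selected on these libraries, their counts are not read against these shares. The 10 comparisons share the 4 unstimulated libraries, so that a low or high unstimulated library moves all of a gene's fold changes together.

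**Figure D2:**
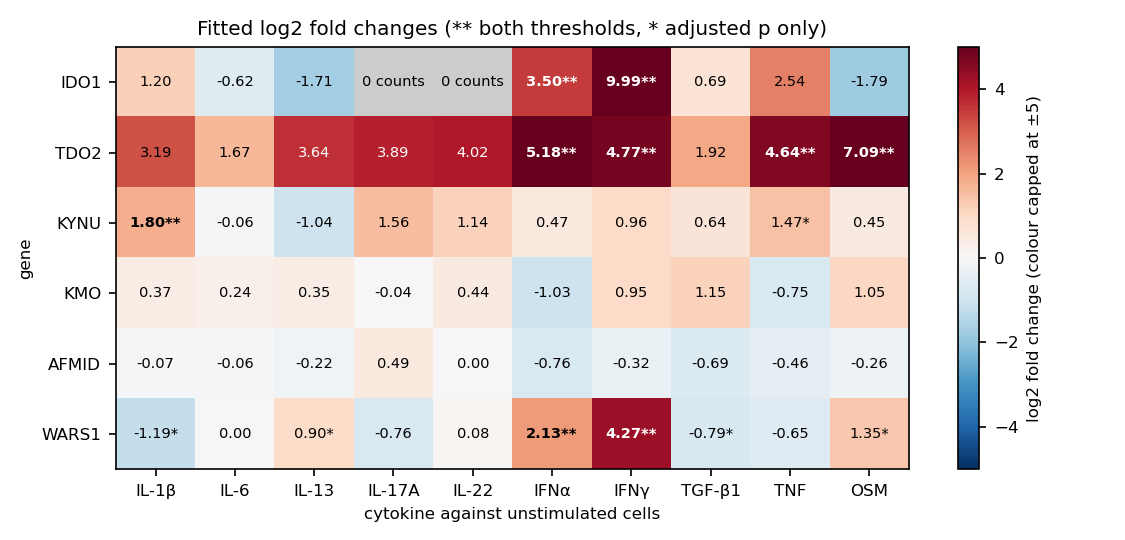
Fitted log2 fold change of each gene (rows) with each cytokine against unstimulated cells (columns), from the fit of all 44 libraries; ** marks both thresholds, * an adjusted p under 0.05 alone, and grey cells a group with 0 counts in all 4 libraries. IDO1, TDO2 and WARS1 carry ** with IFNα and IFNγ, TDO2 also with TNF and OSM, KYNU with IL-1β, and KMO and AFMID carry no mark.

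IDO1, the cytokine-inducible enzyme of the first step, was highest with the interferons and above all with IFNγ. The 4 IFNγ libraries held 1747, 1450.3, 2598 and 2387 CPM (mean 2046 ± 537, SD), and the 4 unstimulated libraries 0, 0, 3.52 and 4.78 CPM. All IFNγ libraries lay above every other library, and the log2 fold change was 9.99 ± 0.75 (SE), between 9.46 and 10.84 when single libraries were left out. The unstimulated level rests on 12 counts, against 10415 with IFNγ, and the ratio of the summed counts, each group scaled by its library sizes, was 1074 (95% exact interval 615 to 2080, counting error only).

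IFNα raised IDO1 to a level far under that of IFNγ. Its 4 libraries held 16.5, 25.7, 23.8 and 25.5 CPM (mean 22.9 ± 4.32, SD), all above the unstimulated range, with a log2 fold change of 3.50 ± 0.82 (SE). The same data tested with DESeq2 gave a log2 fold change of 3.5 without the call. In TNF libraries IDO1 was at 0, 6.89, 0 and 34.8 CPM, and the log2 fold change of 2.54 ± 0.90 was not called. That value moved between 0.12 and 3.39 as single libraries were left out, and TNF replicate 4 alone held 65 of the 73 counts.

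In the other groups IDO1 lay at or near the limit of detection. IL-1β libraries held 4.04, 4.64, 1.27 and 8.43 CPM and overlapped the unstimulated range. TGF-β1 libraries held 0, 0, 4.54 and 7.34 CPM. IL-6 (8 counts in all), IL-13 (3 counts) and OSM (3 counts) had most libraries at 0. With IL-17A and IL-22 all 4 libraries were at 0, where 3 counts over the group would be 0.467 and 0.602 CPM.

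IDO1 is also abundant in myeloid cells, so the leukocyte markers are set beside its interferon values. Their summed level was 38.0 to 74.4 CPM in the IFNα libraries, 8.31 to 20.6 CPM in the IFNγ libraries and 0 to 9.30 CPM in unstimulated libraries, with counts for 3, 4 and 3 of the 8 markers. CD68, a lysosomal protein that is not restricted to leukocytes, made up 718 of the counts of this list over the 44 libraries. The defining marker PTPRC (CD45) had 13 counts over all 44 libraries, and ITGAM, CD3E and MS4A1 had 0. In bulk libraries, a change in the number of cells of a type and a change in message per cell cannot be told apart.

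TDO2, known as the constitutive tryptophan oxygenase of liver, was highest with OSM, a cytokine of the IL-6 family. OSM libraries held 74.3, 68.8, 96.1 and 66.8 CPM (mean 76.5 ± 13.4, SD), and the highest library of another group held 33.6 CPM. Unstimulated libraries held 0.490, 1.46, 0 and 0 CPM, 3 counts in all, so the fitted log2 fold change of 7.09 ± 1.13 (SE) depends on the prior count. The ratio of the summed counts, scaled by library size, was 161 (95% exact interval 54.7 to 783, counting error only). In IL-6 libraries TDO2 was at 0, 2.62, 1.27 and 3.02 CPM, which overlapped the unstimulated range.

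Both interferons and TNF also gave TDO2 calls, at lower and more scattered levels. IFNα libraries held 9.37, 5.27, 33.4 and 33.6 CPM (fitted log2 fold change 5.18 ± 1.15, SE; ratio of counts 41.0, interval 13.7 to 202). IFNγ libraries held 4.52, 8.31, 26.9 and 21.4 CPM (4.77 ± 1.17; ratio 31.8, interval 10.5 to 157). TNF libraries held 1.41, 16.4, 16.5 and 21.4 CPM (4.64 ± 1.17; ratio 30.2, interval 9.97 to 149), and TNF replicate 1 lay within the unstimulated range. With the fit restricted to the 8 libraries of a comparison, TDO2 did not pass the filter on low counts with IFNα, IFNγ or TNF, so none of these 3 calls was made there.

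Every other cytokine group had a higher mean of TDO2 than unstimulated cells, from 1.73 CPM with IL-6 to 8.81 CPM with IL-22, without a call. All 4 IL-22 libraries (6.84, 14.3, 3.84 and 10.2 CPM) lay above the 4 unstimulated ones. IL-17A libraries spanned 0 to 20.7 CPM, IL-13 libraries 0 to 14.4 CPM and IL-1β libraries 0.635 to 8.43 CPM. In TGF-β1 libraries TDO2 was at 0, 0, 0 and 7.34 CPM. Below OSM, the neighbouring groups in the order of means overlapped at each step.

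The 2 enzymes of the first step stood at different levels in different groups, as the plot of IDO1 against TDO2 shows. OSM libraries had the most TDO2 and 0 to 2.00 CPM of IDO1, with 3 counts of IDO1 in the 4 libraries. IFNγ libraries had the most IDO1 and 4.52 to 26.9 CPM of TDO2. With IFNα only the means were close, at 12.4 CPM per kilobase for IDO1 and 12.0 for TDO2, whose transcript lengths are nearly equal. IFNα replicates 1 and 2 held 16.5 and 25.7 CPM of IDO1 and 9.37 and 5.27 CPM of TDO2. IFNα replicates 3 and 4 held 23.8 and 25.5 CPM of IDO1 and 33.4 and 33.6 CPM of TDO2.

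**Figure D3:**
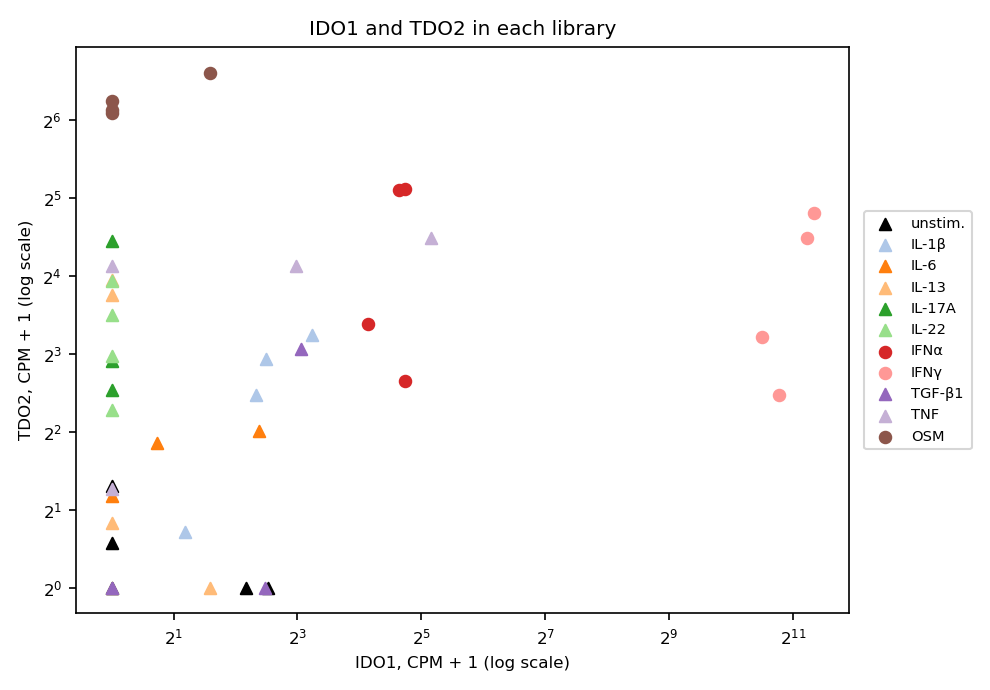
IDO1 (horizontal) and TDO2 (vertical) in each of the 44 libraries, both as CPM + 1 on log axes, coloured by group, with circles for IFNα, IFNγ and OSM and triangles for the other groups; libraries at 0 for both genes lie on top of each other. The 4 OSM libraries stand at the top left (TDO2 66.8 to 96.1 CPM) and the 4 IFNγ libraries at the far right (IDO1 1450.3 to 2598 CPM).

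AFMID, the formamidase of the next step, overlapped between unstimulated cells and every cytokine group. Unstimulated libraries held 31.3, 25.5, 49.96 and 36.9 CPM (mean 35.9 ± 10.4, SD). Group means lay between 21.1 ± 6.44 CPM with IFNα and 50.3 ± 5.39 CPM with IL-17A. The log2 fold changes were between -0.76 ± 0.32 (IFNα) and 0.49 ± 0.31 (IL-17A), and none was called.

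KMO, the hydroxylase branch, was low and scattered, from 0 CPM in some libraries to 19.1 CPM in IFNγ replicate 2. Unstimulated libraries held 2.45, 0, 13.4 and 1.37 CPM, and group means lay between 2.00 ± 1.25 CPM with IFNα and 9.59 ± 3.19 CPM with TGF-β1. The log2 fold changes were between -1.03 ± 0.94 and 1.15 ± 0.87 with an SE of at least 0.86 in each comparison, and none was called. KMO exons overlap those of OPN3 on the opposite strand, at 5.45 CPM on average, and the sources used here do not state whether strand was used in counting, so its counts may include reads of that gene.

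KYNU, the kynureninase, was called with IL-1β and not with the interferons or OSM. IL-1β libraries held 50.5, 71.6, 71.2 and 70.0 CPM (mean 65.8 ± 10.3, SD), against 8.32, 11.7, 31.0 and 25.3 CPM in unstimulated libraries. The ranges did not overlap, and the log2 fold change of 1.80 ± 0.46 (SE) was called. Without unstimulated replicate 1 it was 1.53 and no longer called.

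IL-17A gave KYNU values of 58.4, 53.8, 52.9 and 56.9 CPM, the tightest of the 11 groups relative to its mean and all above the unstimulated range. Its log2 fold change of 1.56 ± 0.46 was over the fold threshold but was not called. Several alternative fits did make the call, among them those with only the 8 libraries, with DESeq2, with no filter on low counts and without unstimulated replicate 3. TNF libraries held 29.7, 56.8, 75.0 and 48.2 CPM, with a log2 fold change of 1.47 ± 0.47 that passed the adjusted p alone. That was lost on leaving out unstimulated replicate 1 (1.2) or 2 (1.32) or TNF replicate 2 (1.46) or 3 (1.27). IL-22 libraries (39.5, 33.2, 35.9 and 57.0 CPM) also lay above the unstimulated range, without a call.

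In the other groups KYNU overlapped the unstimulated range. IFNγ libraries held 21.8, 28.2, 82.4 and 15.7 CPM, the widest spread of any group, and IFNα libraries 10.5, 16.5, 38.1 and 40.5 CPM. TGF-β1 libraries were at 22.3 to 33.0 CPM, OSM libraries at 14.0 to 45.4 CPM and IL-6 libraries at 5.88 to 35.6 CPM. IL-13 libraries were lowest, at 7.10 to 14.7 CPM, with a log2 fold change of -1.04 ± 0.52.

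WARS1, the cytosolic tryptophanyl-tRNA synthetase, was the most abundant of the 3 genes compared per kilobase and moved in both directions. IFNγ libraries held 7428, 4329, 7324 and 7927 CPM (mean 6752 ± 1637, SD), against 453, 443, 277 and 227 CPM in unstimulated libraries. The IFNγ libraries lay above all others, with a log2 fold change of 4.27 ± 0.27 (SE), and the lowest of them was IFNγ replicate 2, the library that correlated least with its group. Leaving out single libraries gave 4.13 to 4.46, and the call was kept each time. IFNα libraries held 2045, 1668, 1266 and 1142 CPM, with a log2 fold change of 2.13 ± 0.24.

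OSM and IL-13 gave smaller rises that passed the adjusted p alone. OSM libraries held 1158, 880.4, 863 and 659 CPM, all above the unstimulated range, with a log2 fold change of 1.35 ± 0.24. IL-13 libraries held 663, 668, 689.6 and 600.3 CPM, also above it, with 0.90 ± 0.24. The IL-13 result was lost without unstimulated replicate 3 (0.83) or 4 (0.75), the 2 libraries where WARS1 was lower.

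IL-1β lowered WARS1 to 179, 135, 158 and 140.1 CPM, all under the unstimulated range, with a log2 fold change of -1.19 ± 0.24 that passed the adjusted p and kept it on leaving out each library. TGF-β1 libraries held 194, 258, 248 and 110.1 CPM and overlapped the unstimulated range. Their log2 fold change of -0.79 ± 0.24 passed the adjusted p alone and lost it without unstimulated replicate 1 or 2 or TGF-β1 replicate 1, 3 or 4 (-0.88 to -0.56). With IL-17A (207 ± 26.9 CPM) and TNF (223 ± 71.2 CPM) the log2 fold changes were -0.76 ± 0.24 and -0.65 ± 0.24, and neither passed. IL-6 (350.2 ± 79.9 CPM) and IL-22 (372 ± 60.9 CPM) lay around the unstimulated mean of 349.8 ± 115 CPM. WARS1 exons overlap those of WDR25 on the opposite strand, which averaged 2.57 CPM.

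The window before the downstream start of WARS1, printed above, holds both the ISRE and the GAS core, and WARS1 responded to both interferons. KYNU, with a GAS core, was called with IL-1β and with neither interferon. TDO2, with none of the 3 elements in its window, was called with OSM, both interferons and TNF. A match is a description of the letters, and no binding was measured in these libraries.

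To set WARS1 against its enzyme class, the 20 other aminoacyl-tRNA synthetases of a fixed list were taken, which load the other amino acids onto their tRNAs. The list also holds the mitochondrial WARS2, and 19 of the 20 were tested. Their median log2 fold change was -0.069 with IFNγ and -0.335 with IFNα, against -0.011 and -0.006 over all tested genes. Their highest values there were 1.39 and 0.64, under the 4.27 and 2.13 of WARS1. With IFNγ 3 were lower and 1 higher at an adjusted p under 0.05 alone, beside 10.6% of all tested genes. With IFNα 5 were lower and 1 higher, beside 9.85%. Over the 10 comparisons, 1 of their 190 tests was called, AARS1 with TNF, and at an adjusted p under 0.05 alone 2 were higher and 21 lower. The share of all tested genes called with TNF was 4.19%, and the shares that passed the adjusted p alone in single comparisons ran from 0.0% to 11.5%.

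AARS1, the alanyl-tRNA synthetase, was at 23.0, 16.0, 14.1 and 17.1 CPM in unstimulated libraries and at 2.82, 6.03, 7.502 and 6.43 CPM with TNF (log2 fold change -1.62 ± 0.47, SE; edgeR adjusted p = 0.0159). The ranges did not overlap, but the call was lost without TNF replicate 1 (-1.38, adjusted p = 0.0796) and, by the fold threshold alone, without unstimulated replicate 1 (-1.45). With IL-1β, where WARS1 was lower, 4 of the 19 were lower and none higher, beside 7.38% of all tested genes that passed, and their median was -0.367 against -0.008 over all tested genes. With TNF 7 were lower and none higher, beside 11.5% of all tested genes, and the median was -0.531 against -0.018. With OSM, where WARS1 was higher, none passed, beside 3.96% of all tested genes, and the median was 0.33 against 0.002.

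**Figure D4:**
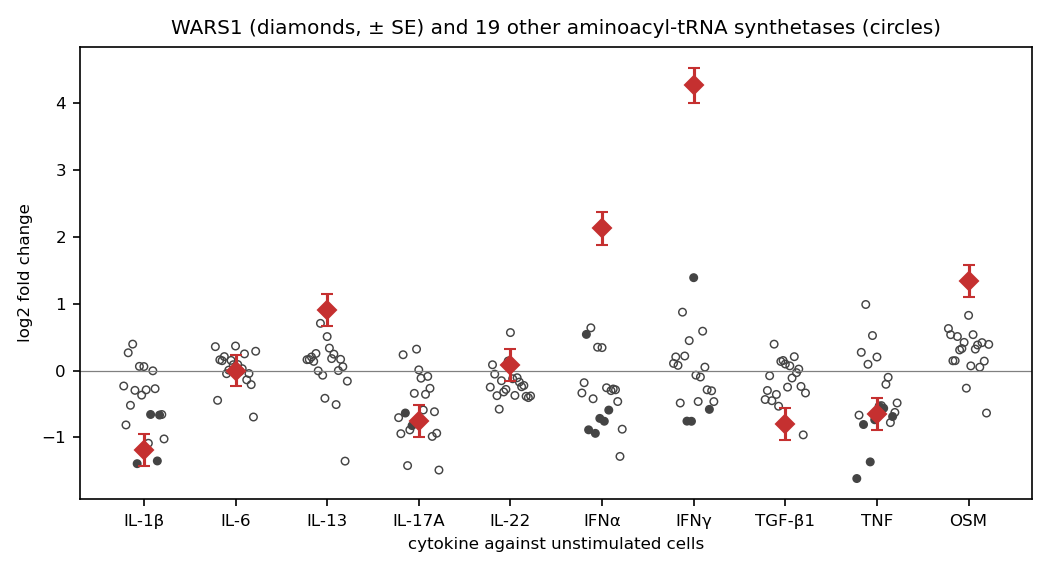
Log2 fold change against unstimulated cells (vertical axis) for each cytokine (horizontal axis), for WARS1 (red diamonds, whiskers ± SE) and 19 other aminoacyl-tRNA synthetases (circles, filled at an adjusted p under 0.05). With IFNγ and IFNα the diamonds (4.27 and 2.13) stand above every circle, of which the highest are 1.39 and 0.64.

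Further enzymes of the kynurenine branch, from a list of 12, did not reach both thresholds in any comparison. Of these, 6 were tested, and KYAT3, a kynurenine aminotransferase, was the 1 gene to pass the adjusted p alone, with IL-1β (log2 fold change 0.78 ± 0.24, edgeR adjusted p = 0.0347) and TNF (0.77 ± 0.24, edgeR adjusted p = 0.0281). It kept that in 2 and 4 of the 8 fits that left out 1 library each, the losses including those without unstimulated replicate 2 or 3 in both comparisons. KYAT3 and the other genes with no call at both thresholds that are named from here on were singled out after their values were seen. The 6 enzymes that were not tested had few counts. Over all 44 libraries IDO2, the paralog of IDO1, had 3, HAAO, which acts after KYNU, 6, ACMSD 3, NMNAT3 14, NMNAT2 23 and the aminotransferase KYAT1 68.

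Of 9 enzymes that lead tryptophan into serotonin, indole or methylated products, INMT was the 1 tested. INMT, the indolethylamine N-methyltransferase, stood at 42.6, 56.1, 65.4 and 73.8 CPM in unstimulated libraries and at 8.07, 2.65, 1.27 and 7.13 CPM with IL-1β (log2 fold change -3.57 ± 0.33, SE; edgeR adjusted p = 3.07e-11). The ranges were far apart. It was also lower with TNF (29.2 ± 10.0 CPM, SD; log2 fold change -1.02, edgeR adjusted p = 0.00756), and this passed no longer without TNF replicate 4. It was higher with IL-13 (152 ± 18.9 CPM; 1.36, edgeR adjusted p = 0.000415) and IFNα (157 ± 29.0 CPM; 1.40, edgeR adjusted p = 7e-05). DDC, the decarboxylase of serotonin synthesis, had 0 counts over the 44 libraries. The tryptophan hydroxylases TPH1 and TPH2 had 24 and 165, and IL4I1, an amino acid oxidase that also makes receptor ligands from tryptophan, had 29.

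Among 7 carriers of tryptophan or kynurenine, 4 were tested, and SLC7A11 was called with both interferons. SLC7A11, the cystine and glutamate exchanger that can also carry kynurenine, was at 168, 258, 184 and 236 CPM in unstimulated libraries. It was at 62.5, 78.9, 46.8 and 47.7 CPM with IFNγ (log2 fold change -1.84 ± 0.22, SE; edgeR adjusted p = 1.16e-08) and at 95.3, 68.5, 52.4 and 69.1 CPM with IFNα (-1.56 ± 0.21; edgeR adjusted p = 2.7e-07). No library of either group reached the unstimulated range. The same held for all libraries with IL-1β (up to 143 CPM), IL-17A (up to 166), TGF-β1 (up to 135) and TNF (up to 148). The IFNα value came to the fold threshold or under it without unstimulated replicate 2 (-1.44) or 4 (-1.50) or IFNα replicate 3 (-1.44). It also passed the adjusted p alone, as lower, with TGF-β1 (-0.99), TNF (-0.89) and IL-1β (-0.78), of which the last was lost without unstimulated replicate 2 or IL-1β replicate 4. SLC36A4, a carrier of tryptophan, was higher with IL-1β (0.97 ± 0.24, edgeR adjusted p = 0.00519; lost without unstimulated replicate 1) and lower with IFNα (-1.16 ± 0.26, edgeR adjusted p = 0.0011).

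The aryl hydrocarbon receptor, which kynurenine can activate, was followed with 7 of its partners and targets, 6 of the 8 genes being tested. AHR itself was at 26.9, 27.7, 47.8 and 29.4 CPM in unstimulated libraries and at 105, 123, 111 and 84.3 CPM with IL-1β (log2 fold change 1.69 ± 0.32, SE; edgeR adjusted p = 0.000225), with no overlap. It passed the adjusted p alone with TNF (82.5 ± 24.1 CPM, SD; 1.33, edgeR adjusted p = 0.00325) and with IFNα (76.9 ± 32.4 CPM; 1.22, edgeR adjusted p = 0.00733), the latter lost without IFNα replicate 4. With IFNγ, where IDO1 was highest, AHR was at 36.4 ± 5.98 CPM and did not pass. Neither kynurenine nor the activity of the receptor was measured, and a link between the enzymes and the receptor was not tested.

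CYP1B1, a monooxygenase and target of the receptor, was at 7.34, 11.7, 19.0 and 13.7 CPM in unstimulated libraries and at 24.0, 66.3, 56.3 and 79.8 CPM with TNF (log2 fold change 2.14 ± 0.54, SE; edgeR adjusted p = 0.00479). With IL-1β it was at 33.3, 41.1, 52.1 and 60.3 CPM (1.86 ± 0.54; edgeR adjusted p = 0.0204), and neither group overlapped the unstimulated range. The IL-1β call was lost without unstimulated replicate 1 (adjusted p = 0.0885) or 2 (0.0616) or IL-1β replicate 3 (0.0513) or 4 (0.0671). With IFNγ, where IDO1 was highest, CYP1B1 was at 18.4 ± 11.3 CPM and overlapped the unstimulated range. With OSM, where TDO2 was highest, it was at 29.8, 36.2, 55.4 and 47.8 CPM, all above the unstimulated range, and its log2 fold change of 1.72 did not pass the adjusted p. A link between CYP1B1 and the levels of IDO1 or TDO2 was not tested. CYP1A1, the classic target, had 8 counts over the 44 libraries and could not be tested, and NQO1, a target shared with the oxidative stress response, was lower with IFNα (-0.82), IFNγ (-0.89) and OSM (-0.78) at an adjusted p under 0.05 alone. The OSM result held in 3 of the 8 fits that left out 1 library each, and was lost without unstimulated replicate 1 or 2 or OSM replicate 2, 3 or 4. TIPARP, of the same list, was higher with TNF at the adjusted p alone (0.63 ± 0.21, edgeR adjusted p = 0.0462). It kept that in 3 of the 8 fits that left out 1 library each.

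**Figure D5:**
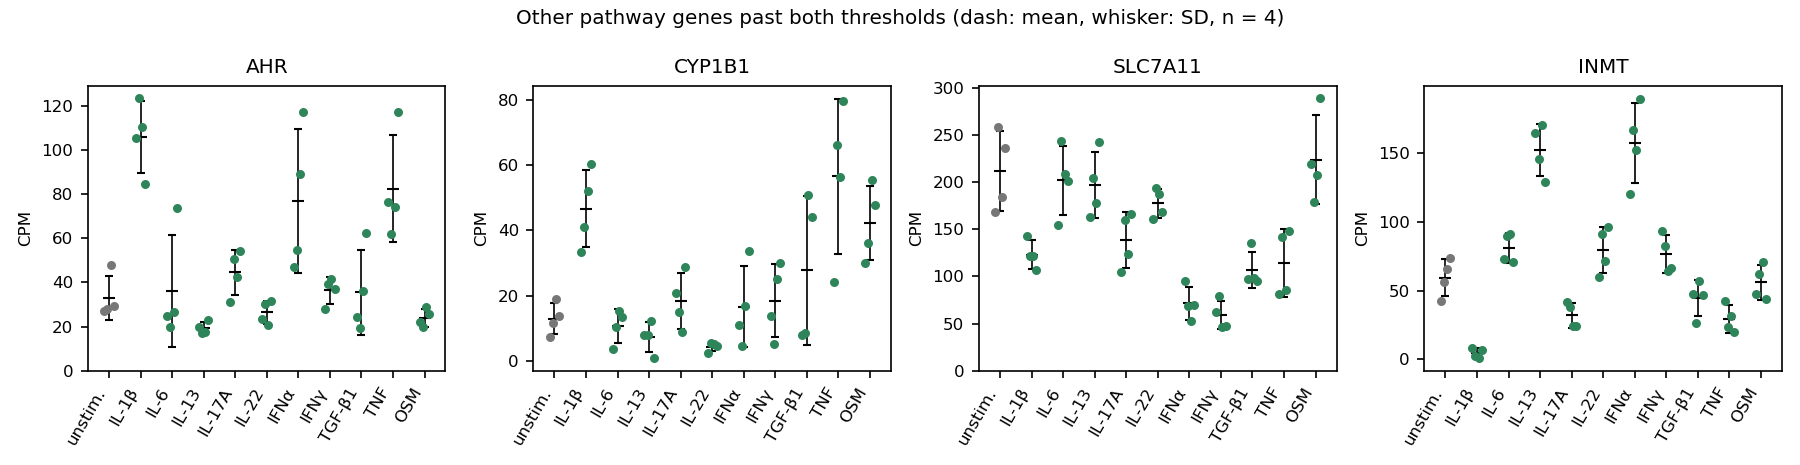
CPM (vertical axes) of AHR, CYP1B1, SLC7A11 and INMT in every library, by group (grey, unstimulated; green, cytokine), with mean and SD (n = 4). AHR and CYP1B1 are above the unstimulated range in all IL-1β and TNF libraries, CYP1B1 also in all OSM libraries. SLC7A11 is under it in all IFNα, IFNγ, IL-1β, IL-17A, TGF-β1 and TNF libraries. INMT is at 1.27 to 8.07 CPM with IL-1β.

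Over all 5 lists, 7 tests were called at both thresholds, 3 higher and 4 lower. These were 0 of 60 tests for the kynurenine branch, 1 of 10 for INMT and 2 of 40 for the carriers. For the receptor and its partners and targets it was 3 of 60, and for the synthetases 1 of 190. Shares of all tested genes called in single comparisons ran from 0.0% to 4.19%. The count of 7 is therefore not read as a result about the lists. At the adjusted p alone 45 passed, beside shares of all tested genes from 0.0% to 11.5%.

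The genes whose pattern over the 11 group means was most like that of each enzyme are given by Pearson's r of mean log2 CPM, among 8705 tested genes. These are descriptions, the points share their libraries, and they say nothing of shared function. IDO1 was most like GBP4 (r = 0.99), GBP5 (0.976), CXCL9 (0.963), IRF1 (0.961) and HLA-DMA (0.956). WARS1 was most like APOL1 (0.952), PLAAT4 (0.946), VWA8 (0.936), C1S (0.925) and VAMP5 (0.924). KYNU was most like PTGS2 (0.923), the inducible cyclooxygenase, IER3 (0.916), CSGALNACT1 (0.909), PLA2G4A (0.903), a phospholipase that supplies it with arachidonic acid, and PMPCB (0.903). TDO2 had the weakest likeness, with UBFD1 (0.881), CTSL (0.874), CHI3L1 (0.861), C15orf61 (0.86) and SLC5A6 (0.847). KMO and AFMID ranged over 1.72 and 1.24 log2 units between groups, too little for the rule, and no gene is named for them.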

How the data were processed

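Total RNA of Ccd-18Co cells was made into libraries with an Illumina kit from New England Biolabs; strand use in counting and the annotation are not given in the sources used here. Per the labels the authors used FastQC (version 0.11.9), MultiQC (1.14) and kallisto (0.48.0) with the build hg38, and deposited estimated counts per gene symbol, not scaled for depth; 5.75% of the values are not whole. These were rounded. Each column was mapped to its library by the sample labels, and the columns of per-sample values not used number 0. No 2 replicates held identical values in 66 pairs.

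In R (version 4.3.3), edgeR (4.0.16) kept genes by filterByExpr, scaled libraries by TMM and fitted all 44 libraries in 1 quasi-likelihood model (common BCV 0.331). The contrast for a cytokine was that group minus the unstimulated group, with Benjamini-Hochberg adjustment within a comparison. The SE of a log2 fold change is its size divided by the square root of F. CPM are scaled to normalized library sizes. DESeq2 (1.42.0) was an alternative. On data simulated for TNF against unstimulated, run on 8905 genes, 50% of 2-fold, 86% of 3-fold and 100% of 4-fold changes were recovered. The changes were put only into genes above a set level in unstimulated libraries. Recovery was counted at the adjusted p alone, without the fold threshold. Unstimulated IDO1, TDO2, KMO and KYNU lay under that level on average, so these shares do not apply to them.

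The members and lists were chosen with earlier results of these data known. The lists hold the rest of the pathway and were not picked for how their genes moved, and their adjusted p are printed with that limit. Companion genes are named when called at both thresholds, at most 4 per list by the size of the log2 fold change; genes most alike are the 5 with the highest r, for members that range over at least 2 log2 units. Coordinates are from GENCODE release 44. Exact Poisson-based intervals of count ratios and floors of 3 counts allow for counting error and no more, because without molecular identifiers several reads can come from 1 molecule.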

Additional observations from a re-analysis of the deposited data

Results flagged for a closer look

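Within the groups of 4, a library is named here when its gap to the nearest of the others, divided by the range of the group, was above Dixon's 95% critical value. This was tested on 72 groups of values, and 10 were found. For normally distributed values chance gives about 1 in 20 (3.6 groups). Some of these groups hold counts at or near 0, where that rate does not apply, so the 10 are not read as an excess. IDO1 was at 4.23 CPM in IL-6 replicate 4, with 0 to 0.654 CPM in the others. TDO2 was at 7.34 CPM in TGF-β1 replicate 4, with 0 in the others. KYNU was at 50.5 CPM in IL-1β replicate 1, with 70.0 to 71.6 CPM in the others, and at 14.7 CPM in IL-13 replicate 2, with 7.10 to 7.502 CPM in the others. KMO was at 3.86 CPM in IFNα replicate 1, with 1.25 to 1.59 CPM in the others. AFMID was at 44.9 CPM in IL-1β replicate 1, with 29.8 to 31.8 CPM in the others, and at 20.1 CPM in OSM replicate 1, with 33.0 to 33.4 CPM in the others. WARS1 was at 4329 CPM in IFNγ replicate 2, with 7324 to 7927 CPM in the others. Total counts were highest in IL-1β replicate 1 (2095807, with 1620541 to 1660473 in the others) and lowest in IL-6 replicate 2 (1486860, with 1612043 to 1627960 in the others of that group).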

How the results depend on the processing

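The alternatives were other size factors, DESeq2, other filters on low counts, fits of only 8 libraries, the replicate number as a block, other fold thresholds and leaving out single libraries. A set of 35 fold changes with an adjusted p under 0.05 was recomputed 487 times. It holds 14 of the 6 enzymes and those of INMT, SLC7A11, AHR, CYP1B1, AARS1, GARS1 and KARS1. GARS1 with IL-17A and IFNγ is in this set. The fold changes of KYAT3, SLC36A4, NQO1, TIPARP and IARS1 are not. TDO2 with IFNα, IFNγ and TNF had no value in the fits of only 8 libraries, where it did not pass the filter on low counts. Of the 487 values, 451 kept direction and side of the adjusted p threshold, 36 lost that threshold and 0 changed sign. The count of called enzymes was 3 with IFNα and 3 with IFNγ on leaving out any single library, and with DESeq2 it was 2 with IFNα (IDO1 lost). With no filter on low counts the count was 2 with IL-1β, 1 with IL-13, 3 with IL-17A, 1 with IL-22 and 2 with TNF. With a log2 fold change above 1 it was 2 each with IL-1β, TNF and OSM, and 17 for the companion genes (7 as reported). With no fold threshold it was 2 each with IL-1β, TNF and OSM, 1 each with IL-13 and TGF-β1, and 45 for the companion genes. With only the 8 libraries compared it was 2 with IFNα, 2 with IFNγ and 0 with TNF, since TDO2 was not tested there, and 1 with IL-17A, and with DESeq2 it was 1 with IL-17A. Leaving out single libraries gave 0 to 1 with IL-1β (0 without unstimulated replicate 1), 0 to 1 with IL-13 (1 without IL-13 replicate 1), 0 to 1 with IL-17A (1 without unstimulated replicate 3), 1 to 3 with TNF (3 without unstimulated replicate 4 or TNF replicate 1, 2 without unstimulated replicate 3 or TNF replicate 3 or 4) and 6 to 8 for the companion genes; the cause of these changes was not tested. Libraries with the same replicate number had deviations from the group means that correlated at 0.024 on average (-0.008 for other numbers). Of 40 pairs with an unstimulated library, 6 were over 0.1, up to 0.281. Of 44 libraries, 22 correlated best with their own number, among the 4 numbers in use. In some groups replicates 1 and 2 stood apart from replicates 3 and 4. WARS1 was at 453 and 443 against 277 and 227 CPM in unstimulated libraries. With IFNα it was at 2045 and 1668 against 1266 and 1142 CPM, and with IL-13 it showed no such split. TDO2 was at 9.37 and 5.27 against 33.4 and 33.6 CPM with IFNα. With IFNγ it was at 4.52 and 8.31 against 26.9 and 21.4 CPM. Unstimulated KYNU was at 8.32 and 11.7 against 31.0 and 25.3 CPM. TDO2 with OSM and KYNU with IL-17A showed no such split. The source of these splits was not tested. With the replicate block the count was 1 with IL-17A, 2 with TNF and 8 for the companion genes, and the counts in the other comparisons did not move. Genes with few counts, KMO and unstimulated IDO1 and TDO2 among them, are limited by depth.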

Other observations

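Some synthetases other than WARS1 also changed, and those named here were picked after their values were seen. GARS1, the glycyl-tRNA synthetase, was at 188 ± 33.0 CPM (SD, n = 4) in unstimulated libraries, at 71.9 ± 12.0 CPM with IL-1β (log2 fold change -1.39 ± 0.23, SE; edgeR adjusted p = 2.12e-05) and at 73.3 ± 10.8 CPM with TNF (-1.37 ± 0.23; edgeR adjusted p = 2.89e-05). Neither range overlapped that of unstimulated cells. GARS1 was also lower with IFNα (98.4 ± 21.6 CPM; edgeR adjusted p = 0.00296) and IFNγ (log2 fold change -0.76; edgeR adjusted p = 0.0217), while WARS1 was higher with both. With IL-17A GARS1 was lower too (-0.82; edgeR adjusted p = 0.0462). The IFNγ and IL-17A results were kept in 4 and 2 of the 8 fits that left out 1 library each. KARS1, the lysyl-tRNA synthetase, was at 131 ± 26.6 CPM with IFNγ against 49.8 ± 16.2 CPM in unstimulated libraries (1.39 ± 0.27; edgeR adjusted p = 0.000231), with no overlap, and was at 63.3 ± 6.68 CPM with IFNα. IARS1, the isoleucyl-tRNA synthetase, was lower with IFNα (-0.72 ± 0.15; edgeR adjusted p = 0.000648), IFNγ (-0.76 ± 0.15; edgeR adjusted p = 0.000425) and TNF (-0.74 ± 0.15; edgeR adjusted p = 0.000524), and kept each on leaving out any single library.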
